A study of Canis lupus familiaris with 28 samples.

Results

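The genes described here are 36 genes of the T cell receptor complex, of its signalling cascade and of T cell identity, chosen by name. Of the 36 genes, 30 were named on the canine array, by 46 of its 43603 probes. Of these probes, 45 were left by the filter on signal, among 30202 probes left in all, and the probe removed was 1 of 3 for RASGRP1. CD247, CD5, TCF7, LAT, UBASH3A and CAMK4 had no probe of that name, and TCF7 and CAMK4 were found by the description of a probe and are given apart. Where a gene had several probes, its brightest one, with the highest processed signal averaged over channels and arrays, stood for the gene.

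RNA came from whole blood of 20 privately owned dogs with atopic dermatitis (AD), a chronic itching skin disease with allergic sensitization, and of 8 healthy dogs that were blood donors. All were adult dogs of both sexes and various breeds, the AD dogs were sampled while signs of disease were visible, and the methods state a period without anti-inflammatory drugs for them. Each dog had 1 two-color Agilent array, with the dog's RNA in Cy5 and, in Cy3, a common reference pooled from whole blood of 13 healthy dogs. Each replicate was thus a separate dog. The study also measured lymphocyte subsets by flow cytometry of isolated mononuclear cells, as shares of gated cells. Those shares have another denominator than an RNA signal of whole blood and were not used here.

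A T cell recognizes antigen through variable receptor chains that cannot signal by themselves. The signal enters the cell through the invariant CD3 and zeta chains, is started by the kinases LCK and ZAP70, is carried by a scaffold of adaptor proteins, and ends in transcription factors of the NFAT family and others. Many of these genes are transcribed mainly in T cells and natural killer cells and are used as markers of T cells in blood. In RNA of whole blood, fewer T cells and less RNA per T cell cannot be told apart.

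All 45 probes were well above background in both channels on all 28 arrays, none was saturated and none lacked a value. Each gene was therefore represented by a measured signal in every dog. Over the whole array, the share of probes well above background was 51.7% to 87.5% in AD dogs, and in healthy dogs it lay between 84.3% and 90.3%. Healthy dogs lay on slides 2 and 3, scanned on 1 day, and AD dogs on 6 other slides scanned on 4 other days, so that slide or scan day and disease cannot be told apart. On the 6 AD arrays of scan day 5 this share did not exceed 63.2%.

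The probe sequences are given because several results below differed between probes of the same gene, and the cause was not tested. Positions are those of the canFam3 build as the array files print them, each sequence is written 5′ to 3′ as on the array, and the files name a transcript for each probe but no exon. The first set holds both probes of ZAP70 and CD28, which differed from each other between dogs, and the probes of TXK and GRAP2, which varied like the brighter probes of those genes. The ZAP70 probes start 10597 bases apart and the CD28 probes 68958 bases apart, and the brighter ZAP70 probe has 68.3% G and C against 55% in the other.
ZAP70 brighter probe, chr10:44898414-44898472, minus strand: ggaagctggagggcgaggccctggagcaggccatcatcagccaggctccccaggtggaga
ZAP70 less bright probe, chr10:44887817-44887876, minus strand: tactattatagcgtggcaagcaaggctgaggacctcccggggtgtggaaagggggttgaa
CD28 brighter probe, chr37:12457609-12458446, plus strand: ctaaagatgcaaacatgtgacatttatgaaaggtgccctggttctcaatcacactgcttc
CD28 less bright probe, chr37:12526567-12532447, plus strand: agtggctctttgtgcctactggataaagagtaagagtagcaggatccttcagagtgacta
TXK, chr13:43914576-43917762, minus strand: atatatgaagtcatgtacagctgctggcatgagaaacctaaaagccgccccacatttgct
GRAP2, chr10:25158278-25158337, minus strand: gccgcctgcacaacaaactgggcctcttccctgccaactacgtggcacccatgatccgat

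The next set holds the probes of the 3 measured CD3 chains, which lie close together on chromosome 5, and of THEMIS, the gene with the smallest p.
CD3D, chr5:15396671-15396730, plus strand: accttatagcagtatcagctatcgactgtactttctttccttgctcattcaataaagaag
CD3E, chr5:15405920-15405979, minus strand: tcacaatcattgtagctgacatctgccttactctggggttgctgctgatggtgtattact
CD3G, chr5:15380636-15380695, minus strand: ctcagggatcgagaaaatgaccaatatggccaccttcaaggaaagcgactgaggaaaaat
THEMIS, chr1:66451642-66451701, minus strand: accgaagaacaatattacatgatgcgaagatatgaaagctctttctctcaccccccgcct

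The last set holds 2 pairs of probes that overlap each other, with the run of bases that both probes of a pair share in capitals (53 bases for MAL and 39 for PRKCQ). Their values are compared below.
MAL brighter probe, chr17:34977324-34977383, minus strand: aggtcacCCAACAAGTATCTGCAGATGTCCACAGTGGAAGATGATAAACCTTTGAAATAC
MAL less bright probe, chr17:34977317-34977376, minus strand: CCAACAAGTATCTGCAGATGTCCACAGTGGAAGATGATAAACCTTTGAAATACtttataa
PRKCQ probe, upstream, chr2:29505688-29505747, plus strand: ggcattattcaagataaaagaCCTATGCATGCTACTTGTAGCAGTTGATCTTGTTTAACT
PRKCQ probe, downstream, chr2:29505700-29505758, plus strand: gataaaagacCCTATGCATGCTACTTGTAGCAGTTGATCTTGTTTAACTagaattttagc

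The T cell genes showed no shared direction between AD and healthy dogs. Of the 30 genes, 15 were higher and 15 lower in AD dogs, with a median log2 fold change of 0.014 against -0.01 over all probes tested. A log2 fold change is here the mean log2 ratio of dog to common reference in AD dogs minus that in healthy dogs. With the study's threshold of 0.085 for the adjusted p, limma called 0 of the 30 genes, and it called 0 of all 30202 probes (0%). The study reported transcripts that differed at this threshold on the same arrays, and this fit did not reproduce those calls. At an unadjusted p under 0.05 there was 1 of 30, THEMIS, against 6.12% of all probes. Lower values in AD dogs at this p made up 4.46% of all probes and higher values 1.65%.

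By role, the median log2 fold change was -0.05 for the 3 CD3 chains, 0.05 for 6 kinases and phosphatases, -0.01 for 6 adaptors, 0.07 for 3 downstream signalling genes, -0.01 for 10 surface receptors and 0.11 for 2 transcription factors. The values of the groups overlapped for all 30 genes, and 0% of all probes tested had groups without overlap. The 95% interval of a gene reached a median of 0.35 to either side of its log2 fold change, from 0.21 to 0.73 over the 30 genes, so that smaller differences could not be told from 0. The spread between dogs was like that of other probes in AD dogs, with a median SD of 0.43 in both, and was 0.36 against 0.30 over all probes in healthy dogs.

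**Figure D1:**
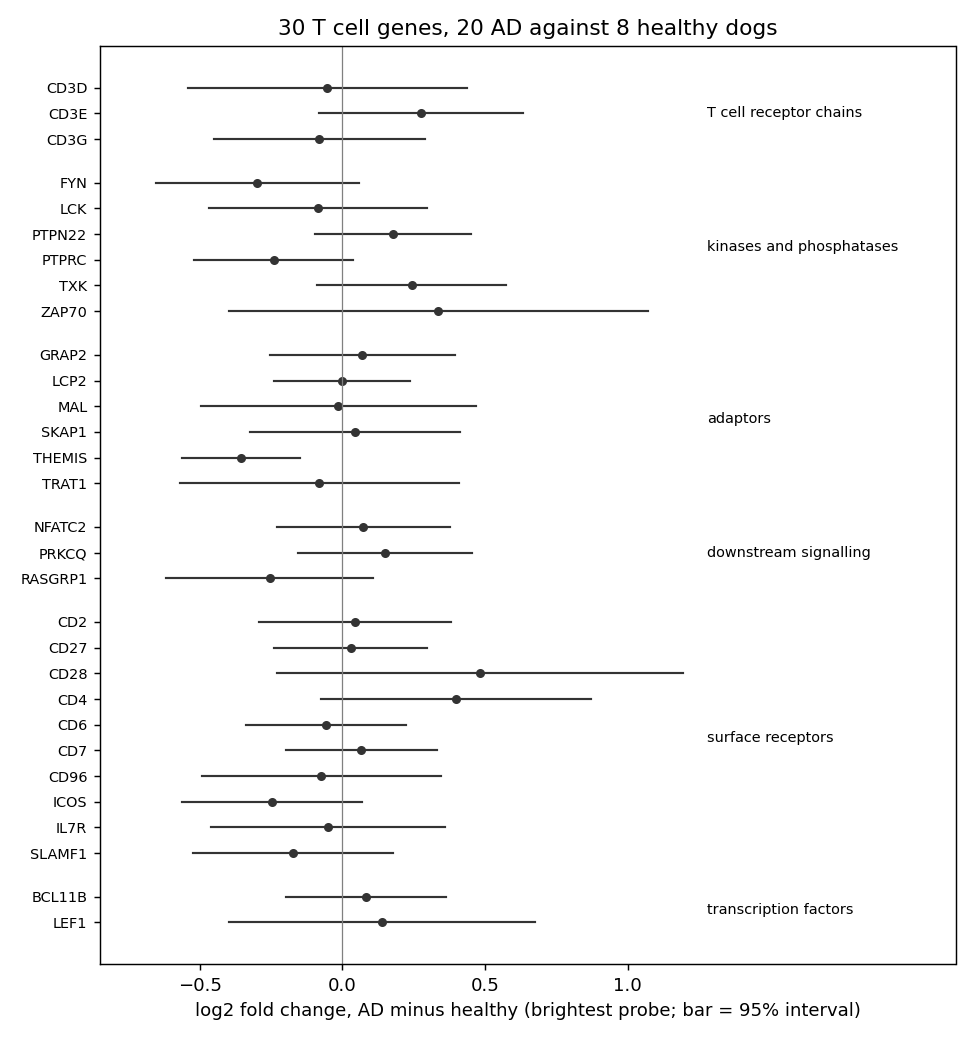
Log2 fold change (x axis, AD minus healthy) of the brightest probe of 30 T cell genes, by role, with points for the limma estimate and bars for the 95% interval (20 AD and 8 healthy dogs). The bars of all genes but THEMIS reach 0, and those of CD28 and ZAP70 are the widest.

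The 3 measured CD3 chains, which couple the receptor to the inside of the cell, differed in sign. CD3D (delta chain) was lowest at -1.54, at the median -0.08 and highest at 0.63 in AD dogs, and at -0.82, -0.21 and 0.53 in healthy dogs. Its log2 fold change was -0.05 (95% interval -0.54 to 0.44, limma p = 0.825, adjusted p = 0.977). The AD dogs thus covered the whole range of the healthy dogs and reached beyond it at both ends.

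CD3E (epsilon chain, the part of the complex that most antibodies to CD3 bind) ranged from -0.63 to 1.14 around a median of 0.37 in AD dogs, and from -0.61 to 0.69 around a median of 0.02 in healthy dogs. This made a log2 fold change of 0.28 (-0.08 to 0.63, limma p = 0.127, adjusted p = 0.866), and 5 of 20 AD dogs lay under the healthy mean. Without scan day 5 it was 0.31 with p = 0.0458 (limma, adjusted p = 0.531). CD3G (gamma chain) ranged from -1.12 to 0.34 in AD dogs (median -0.34) and from -1.13 to 0.26 in healthy dogs (median -0.18). Its log2 fold change was -0.08 (-0.45 to 0.29, limma p = 0.656, adjusted p = 0.948). The lowest dogs of both groups were at nearly the same value of CD3G, and the zeta chain gene CD247 was not measured by name. CD3D also varied between the 6 slides of AD dogs (moderated F test of limma, p = 0.00602, adjusted p = 0.102), and was the 1 gene of 30 with an unadjusted p under 0.05 in that test, against 16.5% of all probes. After adjustment 0 of 30 passed 0.085 there, against 5.28% of all probes.

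**Figure D2:**
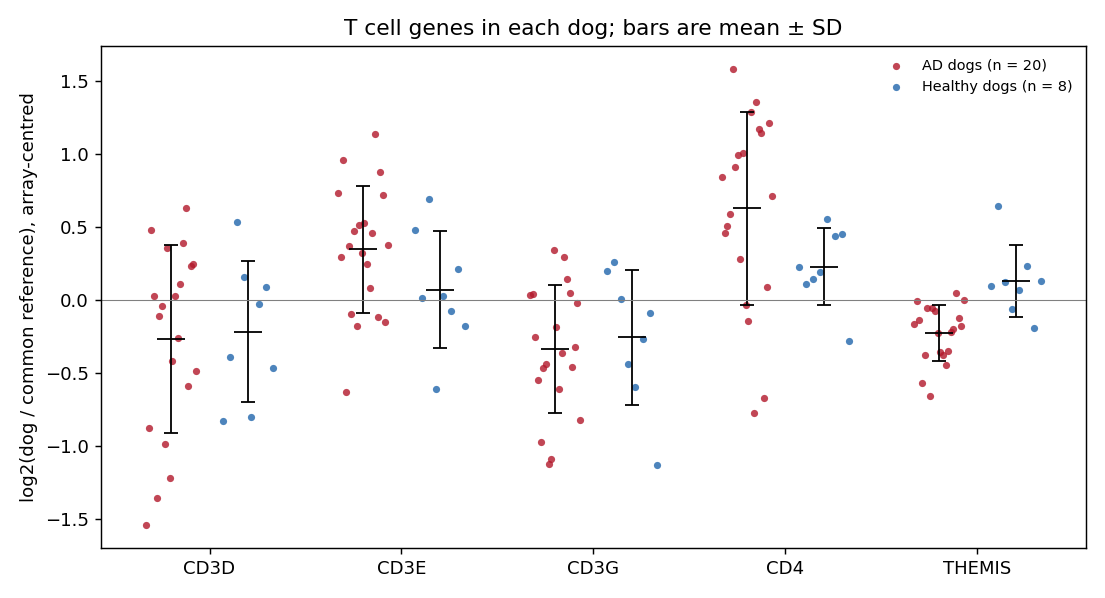
Log2 ratio of dog to common reference, centered on each array (y axis), for CD3D, CD3E, CD3G, CD4 and THEMIS in each of 20 AD and 8 healthy dogs, with bars for mean ± SD. The groups overlap for all 5 genes, AD dogs spread from -1.54 to 0.63 for CD3D, and for THEMIS the highest AD dog is at 0.04.

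Among the adaptors, THEMIS, which sets the strength of the receptor signal during T cell development, was the gene with the smallest p. It ranged from -0.66 to 0.04 in AD dogs (median -0.19) and from -0.19 to 0.64 in healthy dogs (median 0.11). All 20 AD dogs lay under the healthy mean, although the ranges overlapped between -0.19 and 0.04. The log2 fold change was -0.36 (-0.56 to -0.15, limma p = 0.00143, adjusted p = 0.490), which did not pass the threshold. It was -0.20 with normexp background correction and loess, and -0.25 with p = 0.0588 (limma, adjusted p = 0.935) without slide 3, which held 4 of the 8 healthy dogs. Across AD dogs THEMIS had a median r of -0.03 with the other T cell genes. The study listed THEMIS among its genes lower in AD dogs from these same arrays, so its rank here is not a separate finding.

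The other 5 adaptors lay between -0.08 (TRAT1, which binds the receptor complex at the membrane) and 0.07 (GRAP2, which links LAT to LCP2). LCP2, the SLP-76 scaffold onto which ZAP70 adds phosphate, had an interval of -0.24 to 0.24 by its brightest probe. Its less bright probe gave -0.35 (-0.74 to 0.04, limma p = 0.0754, adjusted p = 0.851), and the r between these probes was 0.03 in AD dogs. MAL, a membrane protein that carries LCK to the surface, ranged from -1.49 to 0.98 in AD dogs and from -0.86 to -0.11 in healthy dogs, with a log2 fold change of -0.01. SKAP1, which promotes adhesion after receptor signalling, had one of 0.04.

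Of the kinases and phosphatases, FYN, a kinase of the same family as LCK, was at -1.27, -0.29 and 0.24 (lowest, median, highest) in AD dogs and at -0.62, 0.02 and 0.65 in healthy dogs. This made a log2 fold change of -0.30 (-0.65 to 0.06, limma p = 0.0985, adjusted p = 0.866), with 14 of 20 AD dogs under the healthy mean, while its less bright probe gave 0.03. PTPRC (CD45, the phosphatase on all nucleated blood cells that sets LCK ready to act) ranged from -0.53 to 0.64 in AD dogs (median -0.10) and from -0.38 to 0.78 in healthy dogs (median 0.19). Its log2 fold change was -0.24 (-0.52 to 0.04, limma p = 0.0887, adjusted p = 0.865) by the brightest probe and 0.15 by the other. For both genes the direction thus depended on the probe.

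LCK, the kinase that adds the first phosphates to the CD3 chains, ranged from -1.47 to 0.54 in AD dogs (median -0.24) and from -0.93 to 0.29 in healthy dogs (median -0.19). The log2 fold changes of its 3 probes were -0.08 (-0.47 to 0.30), -0.11 and 0.11, from the brightest to the least bright. ZAP70, the kinase recruited to the phosphorylated chains, ranged by its brighter probe from -1.51 to 1.86 in AD dogs (median 0.52) and from -1.05 to 1.59 in healthy dogs (median 0.25). This gave a log2 fold change of 0.34 (-0.40 to 1.07, limma p = 0.357, adjusted p = 0.882). The less bright probe ranged from -0.88 to 0.50 in AD dogs and from -0.53 to 0.75 in healthy dogs, with a log2 fold change of -0.19 (-0.51 to 0.12, limma p = 0.215, adjusted p = 0.870).

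TXK, a kinase of the TEC family, ranged from -0.70 to 0.85 in AD dogs (median 0.15) and from -0.51 to 0.33 in healthy dogs (median -0.07). It had a log2 fold change of 0.24 (-0.09 to 0.57, limma p = 0.145, adjusted p = 0.866). PTPN22, a phosphatase that dampens receptor signalling, ranged from -0.62 to 0.20 in AD dogs (median -0.24) and from -1.09 to 0.18 in healthy dogs (median -0.27), with a log2 fold change of 0.18 (-0.10 to 0.45, limma p = 0.198, adjusted p = 0.867). The highest values of PTPN22 in both groups were nearly equal, and the lowest value was that of a healthy dog.

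Downstream of the adaptors, RASGRP1, which activates RAS after receptor signalling, ranged from -1.61 to 0.40 in AD dogs (median -0.41) and from -0.53 to 0.31 in healthy dogs (median -0.11). Both of its probes were lower in AD dogs, with log2 fold changes of -0.26 (-0.62 to 0.11, limma p = 0.159, adjusted p = 0.866) and -0.20 (-0.45 to 0.05), and by each probe 15 of 20 AD dogs were under the healthy mean. PRKCQ (protein kinase C theta, which leads to NF-kB) had 0.15, 0.16, 0.15 and -0.01 by its 4 probes. NFATC2, a transcription factor that calcium signals bring into the nucleus, had 0.07. CAMK4, a calcium-dependent kinase found by description, had a log2 fold change of -0.15 (-0.48 to 0.19, limma p = 0.381, adjusted p = 0.887).

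On the cell surface, CD4, the coreceptor of helper T cells that canine neutrophils also carry, ranged from -0.77 to 1.58 in AD dogs (median 0.77) and from -0.28 to 0.56 in healthy dogs (median 0.21). The log2 fold change was 0.40 (-0.08 to 0.87, limma p = 0.0968, adjusted p = 0.866), and the SD was 0.66 in AD dogs against 0.26 in healthy dogs. AD dogs lay both above and below all healthy dogs. Without the 6 arrays of scan day 5, CD4 had a log2 fold change of 0.56 with p = 0.00699 (limma, adjusted p = 0.293). Across AD dogs CD4 had a median r of -0.18 with the other T cell genes, 0.34 with 12 neutrophil genes and 0.49 with 13 red-cell genes, and across healthy dogs -0.12, 0.29 and -0.47. The part of these cells in the level of CD4 was not tested.

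CD28, the receptor for costimulation, ranged by its brighter probe from -1.45 to 1.71 in AD dogs (median 0.52) and from -1.03 to 0.99 in healthy dogs (median 0.03). The log2 fold change was 0.48 (-0.23 to 1.19, limma p = 0.176, adjusted p = 0.866). The less bright probe ranged from -0.55 to 0.82 in AD dogs and from -0.50 to 0.54 in healthy dogs, with a log2 fold change of -0.06 (-0.38 to 0.25, limma p = 0.683, adjusted p = 0.952). The range of the brighter probe was thus wider in both groups.

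ICOS, a costimulator of activated T cells whose gene is also on chromosome 37, ranged from -0.72 to 0.77 in AD dogs (median 0.03) and from -0.19 to 0.60 in healthy dogs (median 0.25). Its log2 fold change was -0.25 (-0.56 to 0.07, limma p = 0.120, adjusted p = 0.866) by the brightest probe and 0.02 by the other. IL7R, the receptor for the survival cytokine IL-7, ranged from -1.04 to 0.88 in AD dogs (median -0.11) and from -0.69 to 0.47 in healthy dogs (median -0.16), with a log2 fold change of -0.05 (-0.46 to 0.36, limma p = 0.804, adjusted p = 0.974). The AD dogs exceeded the range of healthy dogs on both sides for both genes.

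The other 6 surface receptors lay between -0.17 and 0.07. SLAMF1, a receptor between lymphocytes, had -0.17 and CD96, an adhesion receptor of T and natural killer cells, had -0.07. CD6, a receptor that binds to other leukocytes, had -0.06. The adhesion receptor CD2, the costimulator CD27 and the early T cell marker CD7 had 0.05, 0.03 and 0.07. None of these 6 had an unadjusted p under 0.05.

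Of the transcription factors of T cell identity, LEF1, a partner of beta-catenin in naive T cells, ranged from -1.67 to 0.91 in AD dogs (median -0.20) and from -1.63 to 0.13 in healthy dogs (median -0.45). Its log2 fold change was 0.14 (-0.40 to 0.67, limma p = 0.604, adjusted p = 0.936). BCL11B, which holds cells to the T lineage, had 0.08, and TCF7, the factor related to LEF1 that was found by description, had 0.06 (-0.21 to 0.33, limma p = 0.664, adjusted p = 0.949). The values of these 3 factors lay within their intervals around 0.

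Of the 30 genes, 18 had 1 probe and 12 had several, which made 19 pairs of probes of the same gene. The median r between the probes of a pair was 0.684 across AD dogs and 0.750 across healthy dogs, and 14 pairs had an r of at least 0.5 in AD dogs. The overlapping probes of PRKCQ reached 0.989 and those of MAL 0.890, and the TRAT1 probes, which start 140 bases apart, 0.986. Probes of 7 genes had log2 fold changes of both signs, but no gene had probes of opposite sign each with an unadjusted p under 0.05. Only the pairs of ZAP70 and CD28 had a negative r in AD dogs, -0.332 and -0.276, and in healthy dogs they had -0.100 and -0.591.

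**Figure D3:**
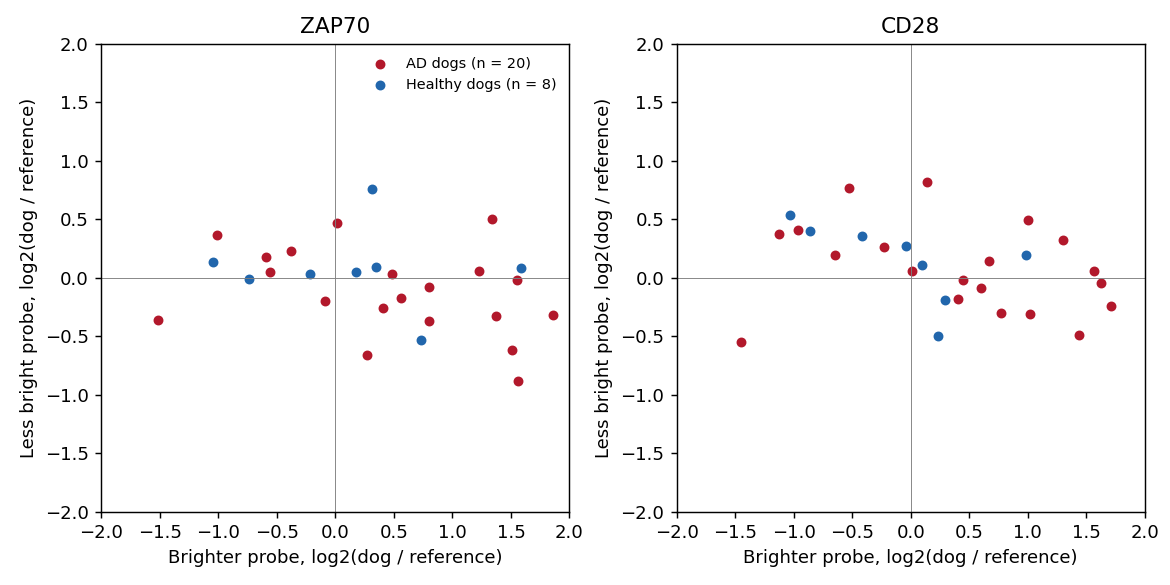
Log2 ratio of dog to common reference by the brighter probe (x axis) and the less bright probe (y axis) of ZAP70 (left) and CD28 (right), with 1 point for each of 20 AD and 8 healthy dogs. The dogs spread widely along the x axis, from -1.51 to 1.86 for ZAP70 and from -1.45 to 1.71 for CD28, and do not line up along a rising diagonal.

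The brighter probes of ZAP70 and CD28 varied across dogs with genes of red cells and their precursors, and their less bright probes varied with the other T cell genes. Across AD dogs the brighter ZAP70 probe had a median r of 0.869 with 13 red-cell genes and -0.142 with the other T cell genes, and the less bright one -0.346 and 0.459. For CD28 the brighter probe had 0.877 and -0.183, and the less bright one -0.160 and 0.478. The single probes of TXK and GRAP2 behaved as the brighter probes did, with 0.807 and 0.795 for the red-cell genes and -0.152 and -0.069 for the T cell genes. GRAP2 was singled out after its values were seen. How many of all probes reached a median r this high with the red-cell genes was not counted.

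In the 8 healthy dogs the median r with the red-cell genes was 0.843 for the brighter ZAP70 probe, 0.793 for the brighter CD28 probe, 0.626 for TXK and 0.477 for GRAP2. The red-cell gene closest to each of the 4 probes in AD dogs was KLF1, the master transcription factor of red-cell precursors, with an r of 0.951, 0.954, 0.909 and 0.902 in the same order. ALAS2, the first enzyme of heme synthesis in red cells, had 0.869, 0.893, 0.833 and 0.813. CA1, SPTB and EPOR, also among the red-cell genes, had only 0.185 to 0.396 with the 4 probes in AD dogs. RHAG, a membrane channel of the Rh complex, went the other way, between -0.60 and -0.54 in AD dogs. Among themselves the 4 probes had an r of 0.863 to 0.978 over the 6 pairs in AD dogs, and 0.725 to 0.981 in healthy dogs. The 4 probes were set apart by their r with the red-cell genes in these same dogs, so this is not separate evidence.

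All log2 ratios share the common reference and the centering of the array, so the same values were computed in each channel alone. In the dog's channel of AD arrays, the median r with the red-cell genes was 0.763 for the brighter ZAP70 probe, 0.792 for the brighter CD28 probe, 0.697 for TXK and 0.613 for GRAP2. In the common reference channel of the same arrays, where the RNA is 1 pool, it was -0.104, -0.068, -0.017 and -0.053. With slide means removed, the values from log2 ratios stayed between 0.768 (TXK) and 0.884 (brighter ZAP70 probe). These correlations describe 20 and 8 dogs and were not tested.

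**Figure D4:**
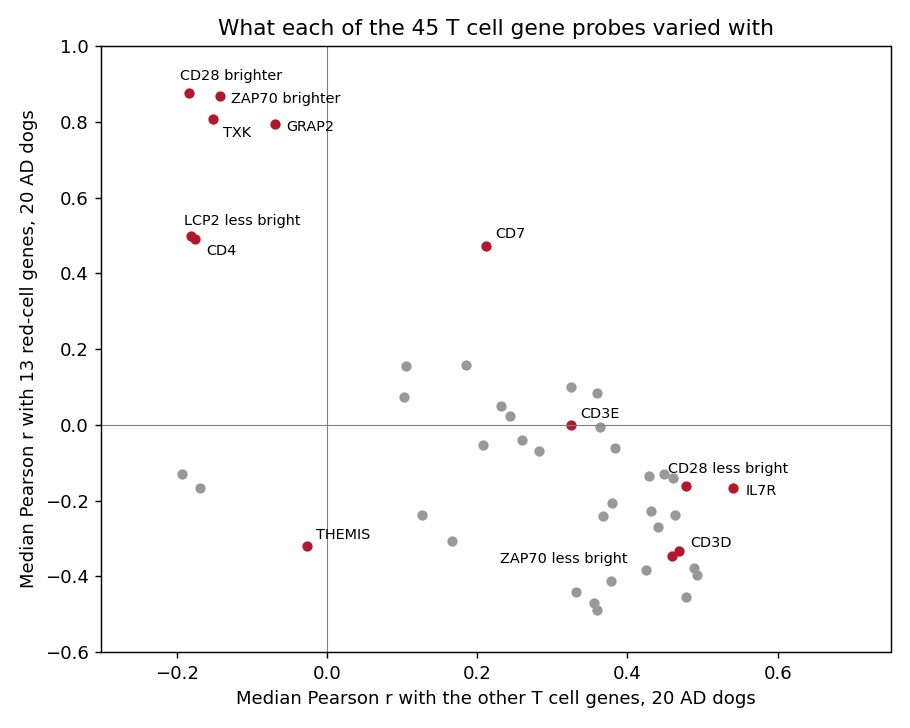
For each of the 45 probes, the median Pearson r across 20 AD dogs with the other T cell genes (x axis) and with 13 red-cell genes (y axis); named probes are in red. The brighter probes of CD28 and ZAP70, TXK and GRAP2 stand apart at 0.795 to 0.877 on the y axis, and the less bright probes of ZAP70 and CD28 lie among the other T cell genes at 0.459 and 0.478 on the x axis.

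The log2 fold changes of these 4 probes had a median of 0.29, and those of the other 26 genes one of -0.03. In the dog's channel alone the 4 probes differed between the groups by 0.04 (CD28), 0.01 (ZAP70), -0.01 (TXK) and -0.12 (GRAP2). In the common reference channel they differed by -0.46, -0.31, -0.27 and -0.17 in the same order. The red-cell genes had a median log2 fold change of 0.25 over 13 genes, with 1 of 13 at an unadjusted p under 0.05, against 6.12% of all probes. That gene was RHAG, lower in AD dogs at -0.35 (limma p = 0.0212, adjusted p = 0.643). Their mean level per dog ranged from -1.12 to 0.99 in AD dogs (median 0.39) and from -0.85 to 0.99 in healthy dogs (median -0.07). The part of red-cell RNA in the values of these 4 probes was not tested. With ZAP70 and CD28 represented by their less bright probes, a choice made after their values were seen, the median over the 30 genes was -0.03.

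Across dogs, pairs of T cell genes had a higher median r than pairs of genes over the whole array. The median r over the 435 pairs of the 30 genes was 0.176 across AD dogs and 0.219 across healthy dogs, against -0.007 and -0.005 over all pairs of 23307 genes. An r of at least 0.5 was reached by 22.8% of the 435 pairs in AD dogs, against 10.2% of all pairs. The genes with the highest median r with the others in AD dogs were IL7R (0.541), FYN (0.493), LCK (0.488), SKAP1 (0.478), CD3D (0.469) and CD3G (0.461). These genes were picked by their values in AD dogs. In healthy dogs they had a median r with the other T cell genes between 0.371 (IL7R) and 0.555 (FYN). A dog with a high value of 1 of them thus tended to have high values of other T cell genes. PTPN22 (-0.193), CD4 (-0.175) and LCP2 (-0.169) were among the genes that did not follow the rest.

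Correlations of chosen pairs were tested by permutation in each group, 8 relations in all with Benjamini-Hochberg adjustment. CD3E and CD3G had r = 0.461 in AD dogs (two-sided permutation p = 0.0417, adjusted 0.105, Spearman rho = 0.477, permutation p = 0.0357, adjusted 0.0951), and 0.441 without the 2 dogs farthest from the median. CD3E and CD3D had r = 0.297 (permutation p = 0.204, adjusted 0.272) and rho = 0.325 (permutation p = 0.164, adjusted 0.263). Neither relation passed 0.05 after adjustment.

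LCK and the brighter ZAP70 probe had r = -0.438 in AD dogs (permutation p = 0.0526, adjusted 0.105, rho = -0.496, permutation p = 0.0272, adjusted 0.0951). LCK and the less bright ZAP70 probe, a pair added after its values were seen, had r = 0.730 (permutation p = 0.00031, adjusted 0.00248, rho = 0.704, permutation p = 9e-04, adjusted 0.0072) in AD dogs. It was 0.761 without the 2 farthest dogs and 0.698 with slide means removed. In the 8 healthy dogs the less bright probe had r = 0.888 (exact permutation p = 0.0337, adjusted 0.105, rho = 0.333, exact permutation p = 0.428, adjusted 0.489), which rested on the 2 farthest dogs, since r was -0.545 without them. The other 3 relations in healthy dogs had an exact permutation p between 0.184 (r = 0.521, CD3E with CD3G) and 0.605 (r = -0.225, LCK with the brighter ZAP70 probe).

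In the Cy3 channel the RNA was 1 pool and did not differ between arrays. Even so, 16 of the 30 brightest probes differed there between AD arrays and healthy arrays by the same threshold (limma), against 39.1% of all probes. With the channel centered on the median in place of quantile normalization 26 of the 30 differed, against 19078 of all 30202 probes. With normexp before dye normalization 15 of the 30 did, against 10939 of all probes. Of the 16 with quantile normalization, 9 were higher on AD arrays, against 21.1% of all probes, and 7 were lower, against 17.9%. In the dog's channel alone, 2 of 30 passed, against 4.14% of all probes. They were CD3E, higher by 0.67 (0.31 to 1.04, limma adjusted p = 0.0342), and THEMIS, with -0.70 (-0.98 to -0.41, limma adjusted p = 0.0047).

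Both probes also differed in the reference channel and in the same direction, CD3E by 0.41 (limma adjusted p = 0.000224) and THEMIS by -0.34 (limma adjusted p = 0.0106). These were 0.63 and -0.23 with median centering, where THEMIS had a limma adjusted p of 0.0508, and 0.34 and -0.19 with normexp. Their log2 ratios, in which the reference is subtracted, were 0.28 and -0.36 and did not pass. For the brighter CD28 probe, the reference was at -0.46 (limma adjusted p = 0.0114) and the dog's channel at 0.04, and for the brighter ZAP70 probe the reference was at -0.31 (limma adjusted p = 0.0345) and the dog's channel at 0.01. For both, the difference in the reference channel was thus larger than that in the dog's channel.

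**Figure D5:**
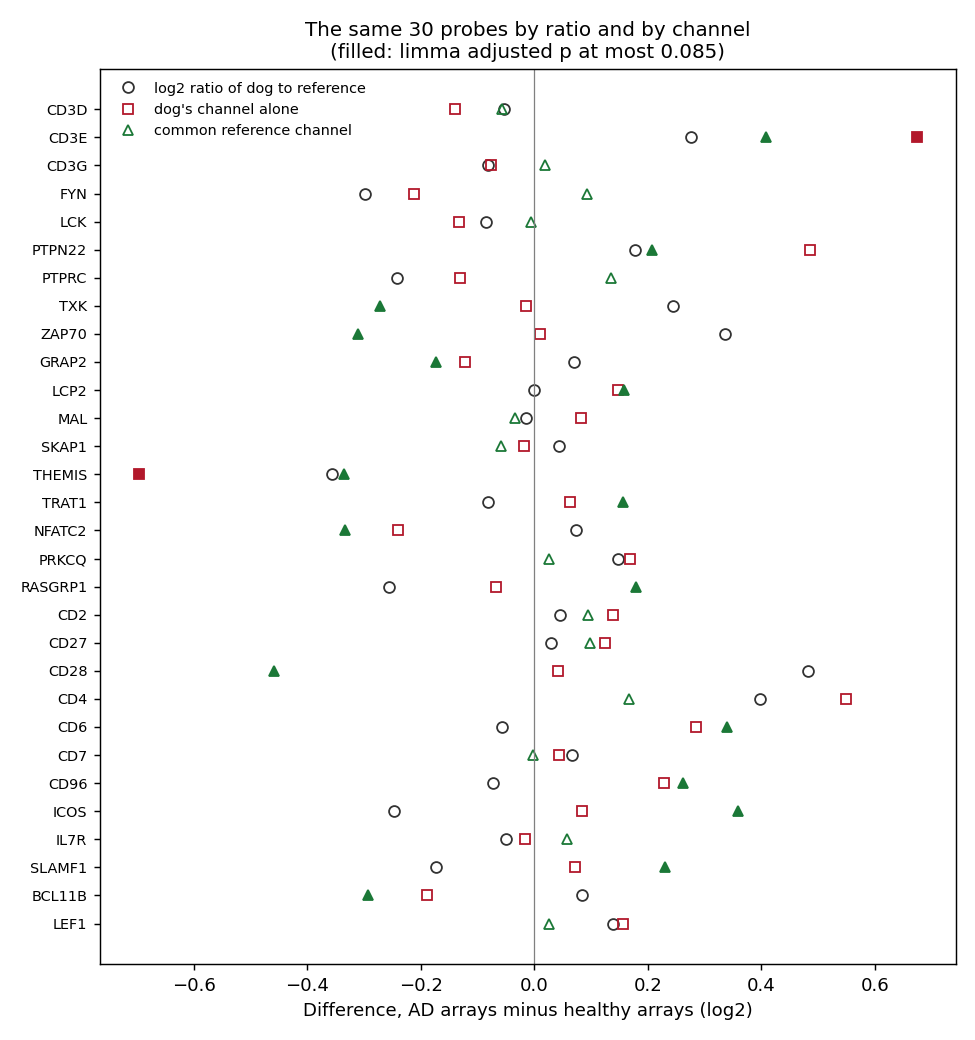
Difference between AD arrays and healthy arrays (x axis, log2) for the brightest probe of each of 30 genes, by the log2 ratio (circles), the dog's channel alone (squares) and the common reference channel (triangles), filled where the limma adjusted p is at most 0.085. Filled triangles mark 16 genes, filled squares 2 genes (CD3E and THEMIS) and filled circles none.

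Other genes of the receptor pathway were read from a list of 59 genes, of which 50 had a probe left by the filter. Of these, 22 were higher and 28 lower in AD dogs with a median log2 fold change of -0.02, and limma called 0 after adjustment. At an unadjusted p under 0.05 there was 1 of 50, against 6.12% of all probes. This was CXCR4, a chemokine receptor on many leukocytes, at 0.39 (0.02 to 0.76, limma p = 0.0373, adjusted p = 0.758), which had p over 0.05 with slide or scan day as a random block. The next were IL2RG, the shared chain of several cytokine receptors, at 0.26 (limma p = 0.0881, adjusted p = 0.865), and TRAF3IP3, a protein of lymphocyte development, at -0.23 (limma p = 0.112, adjusted p = 0.866). CD8A and CD8B, the coreceptor chains of cytotoxic T cells, had log2 fold changes of -0.02 (-0.48 to 0.44) and 0.15 (-0.33 to 0.62).

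Marker genes of the other cells in whole blood were measured on the same arrays. Over all 30202 probes, 14466 were higher in AD dogs and 6.12% had an unadjusted p under 0.05. Of 12 monocyte genes and 11 B cell genes none had an unadjusted p under 0.05, with medians of 0 and -0.01. Of 12 neutrophil genes none did either, with 11 of 12 higher in AD dogs, a median of 0.24 and a mean level per dog from -0.41 to 1.35 in AD dogs and from -0.36 to 0.46 in healthy dogs. Of 9 platelet genes 1 did, THBS1, a matrix protein that platelets release, at -0.66 (limma p = 0.0211, adjusted p = 0.643), and the median was -0.22. The 4 measured eosinophil genes had a median of 0.06 and none with an unadjusted p under 0.05. Well above background on all 28 arrays were 11 of the 12 monocyte genes, 8 of the 11 B cell genes, 3 of the 4 eosinophil genes, 12 of the 13 red-cell genes, and all measured neutrophil and platelet genes. The part of these cell types in the values of the T cell genes was not tested.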

How the data were processed

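Log2 ratios of T cell genes were computed from scanner files of 28 two-color arrays, 1 for each of 20 AD and 8 healthy dogs. The deposited files hold spot intensities, which the authors obtained with Agilent Feature Extraction by background subtraction and Lowess dye normalization. The labels name version 10.7.3.1 and the file headers 10.10.1.1. The deposited log10 ratio, repeated among the authors' processed values, equalled that of the processed signals within 0.001 for 94.2% of spot values.

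Control spots were left out, spots marked as non-uniform or population outliers were set to missing, and the mean over a probe's spots was taken. The filter retained probes well above background on some array for which a median processed signal in either channel of either group exceeded 100. This is 1 reading of the filter in the methods of the study, which do not say how the medians were combined. It left more probes than the number of transcripts stated there. Requiring all 4 medians to exceed 100 left 24997, also more than stated there. The log2 ratios of an array were centered on their median. Groups were compared with limma 3.58.1 (lmFit, eBayes) in R 4.3.3 with Benjamini-Hochberg adjustment over 30202 probes. The package data.table, version 1.17.8, read the files and matplotlib 3.10.9 drew the figures. The limma step was tested on simulated data. The single channels were quantile normalized between arrays. Pair correlations used all 40320 orders in healthy dogs and 100000 permutations in AD dogs. Precision is limited by how many arrays there were.

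The members and gene lists were chosen with earlier results of these data known. Ranges and medians by group were given for the CD3 chains, the 10 members with the smallest p, and CD4, CD28, LCK, ZAP70, LEF1, IL7R and PTPRC. For TCF7, found by description, for CD8A and CD8B and for the 3 pathway genes with the smallest p, log2 fold changes were given. Alternatives varied the filter, outlier marks, background correction, centering, channel, source of values, slide, scan day and dog number as terms, array weights, variance model, probe choice and the arrays left out.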

Additional observations from a re-analysis of the deposited data

How the results depend on the processing

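The count of T cell genes called stayed at 0 of 30 under all alternatives but 2. The dog's channel alone called 2 genes (1251 of all probes) and array weights called 1, THEMIS (adjusted p = 0.0562, limma, 849 of all probes). Among all probes, the count was 3 with no filter on signal and 1 with the filter on the dog's channel. The adjusted p of THEMIS ranged from 0.0047 to 0.996 over the alternatives, its log2 fold change from -0.70 to -0.20, and its unadjusted p was under 0.05 in all but the fit without slide 3. The number of T cell genes at an unadjusted p under 0.05 was 4 with the dog's channel alone (against 19.5% of all probes), 8 with array weights (18.9%), 0 without slide 3 (2.6%), 2 without slide 7 (6.25%) and without slide 8 (7.92%), 3 without scan day 5 (9.29%), and 1 to 3 without each healthy dog in turn. It was 3 without healthy dog 5 (5.06%) and without healthy dog 7 (5.5%). The number of pathway genes at this p was 11 with the dog's channel alone, 4 with array weights, and 0 with no filter, with slide or scan day as a random block, without slides 6, 7 or 8, and without scan day 5, and 0 to 1 without each healthy dog (0 without dog 2 or dog 7). The median log2 fold change of the T cell genes stayed between -0.10 and 0.10, and that of the CD3 chains between -0.26 and 0.10, the lowest with dog number as a block, and -0.05 without it. Healthy dogs left out 1 at a time gave -0.03 to 0.06 and -0.14 to 0.05.

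Dog numbers come from the sample titles, which state no pairing of dogs. AD and healthy dogs of the same number correlated between -0.359 and 0.425 in their deviations from the group means (8 numbers, 4 over 0.1). Closest to their own number were 1 of 8 healthy dogs and 3 of 8 AD dogs. With dog number as a block, which leaves 8 AD dogs to be compared, 7 T cell genes and 4 pathway genes had an unadjusted p under 0.05, against 17.1% of all probes, and 0 T cell genes were called.

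Array weights raised the number of probes that differed between slides of AD dogs from 1595 to 8868, and median centering raised those differing in the reference channel from 11807 to 19078. The correlation of LCK with ZAP70 turned from -0.438 to 0.730 in AD dogs and from -0.225 to 0.888 in healthy dogs with the less bright ZAP70 probe, and the cause was not tested. The value of 0.888 rested on the 2 farthest healthy dogs, and without them r was -0.545. The direction of 23 of the 30 genes changed under at least 1 alternative, none of them with p under 0.05 in either fit. The share of probes above background limits the arrays of scan day 5 most.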

Other observations

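The variable chains of the T cell receptor were not among the genes chosen by name, but 18 probes were described as such chains, of which 15 were left by the filter on signal. The 11 probes of gamma chains had log2 fold changes between -0.03 and 0.38 (median 0.11), the 3 probes of beta chains lay between -0.21 and 0.02, and the 1 probe of an alpha chain was at 0.11. By description the gamma probes included pseudogene sequence, as for the one at -0.03. By limma 0 of the 15 had an unadjusted p under 0.05, against 6.12% of all probes. Probes of these chains can share sequence with other segments of the same family and are therefore uncertain.

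Of 13 genes of cytotoxic lymphocytes, 10 were lower in AD dogs, against 15736 of all 30202 probes. An unadjusted p under 0.05 was reached by 2, both lower in AD dogs, against 4.46% of all probes lower at this p. Both were named after their values were seen. GZMK, a granzyme of cytotoxic T cells, ranged from -1.75 to 0.76 in AD dogs (median -0.65) and from -0.92 to 1.37 in healthy dogs (median -0.46), with a log2 fold change of -0.56 (-1.05 to -0.07; limma p = 0.0265, adjusted p = 0.684). EOMES, a transcription factor of cytotoxic cells, ranged from -0.97 to 0.39 in AD dogs (median -0.14) and from -0.18 to 0.43 in healthy dogs (median 0.05), with a log2 fold change of -0.32 (-0.59 to -0.04; limma p = 0.0258, adjusted p = 0.677). For GZMK 19 of 20 AD dogs lay below the mean of healthy dogs, and for EOMES 16 of 20, while the groups overlapped for both. The healthy mean of GZMK, -0.16, itself lay above the healthy median. In the dog's channel alone GZMK had -0.43 (-0.91 to 0.05, limma adjusted p = 0.304) and EOMES -0.35 (-0.67 to -0.03, limma adjusted p = 0.223).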
